A study of Mus musculus with 21 samples.

Results

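The regions described here are stretches of chromatin that were called open in uninduced cardiac progenitor-gated cells and were no longer called open after Sox7 was induced. ATAC peaks of 8 lists were merged where they overlapped by 1 bp or more, and a region was kept when both uninduced CPC lists and neither induced CPC list held a peak in it. The members, chosen by the presence and absence of CPC peaks, were 1203 of 51264 regions (2.35%), here called CPC lost regions. They were 6.24% of the 19282 regions with a peak in both uninduced CPC lists. The number rests on every library, being 2633 and 4535 without uninduced CPC library 1 or 2 and 2235 and 1895 without induced library 1 or 2, and it was 141 when the uninduced peaks had to score 100 or more. Because the 4 CPC lists chose the regions, the CPC peaks and their scores are given as a description with no test. The EPC and ChIP lists carry the comparisons, since the presence of their peaks was not part of the choice. EPC peaks did enter the merging and so helped to set the bounds of regions. With only the CPC lists merged, 1213 regions were lost.

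The study used mouse A2lox-Sox7-Myc embryonic stem cells, 1 line derived from E14Tg2a in which doxycycline turns on a Myc-tagged Sox7, grown into embryoid bodies (EBs), suspended cell aggregates that form mesoderm. All groups carried this transgene. Induced EBs received doxycycline at 1 µg/ml from day 3 for 24 h, uninduced EBs received none, and both were collected at day 4. The characteristics of the ATAC samples give PDGFRα+FLK1+ for the cells called CPC (cardiac progenitors) and PDGFRα-FLK1+ for the EPC (endothelial progenitors), each with 2 libraries per condition, whereas the growth protocol names a PDGFRα+FLK1- sort. Groups were taken from the sample labels. Anti-Myc ChIP-seq was done on unsorted cells, with 4 uninduced libraries (of which 2 share most of their peaks), 4 induced libraries and 1 input library. The labels do not say whether replicates came from separate cultures, and p-values therefore measure the spread between these libraries alone, possibly a technical one.

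ATAC-seq uses a transposase that inserts adapters where DNA is accessible, and a peak caller marks the places with more insertions than their surroundings. Open regions include promoters, which tend to be open in many cell types, and distal elements, which tend to be open in fewer. Sox7 belongs to the SOXF group of transcription factors, which bind short AT-rich sequences and act in the formation of blood vessels and in early blood development. CPC and EPC both descend from FLK1+ mesoderm, PDGFRα being kept on the cardiac and paraxial side and lost on the endothelial and blood side.

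The 8 ATAC lists held 23068 to 30732 peaks, the uninduced CPC lists being 27540 and 23068 peaks long and the induced ones 29291 and 27979. Since these lists give no counts of reads, library depth is unknown, and an absent peak is compatible with low depth as well as with closed chromatin. Each library pools many cells, so fewer open cells and weaker opening per cell cannot be told apart. No pair of ATAC lists shared more than 1.26% of its peak starts. Each peak carries the caller's score, minus 10 times the log10 of its p-value in the format of this caller (MACS 1.4), and no ATAC peak scored under 50. That score is the authors' value and is used here to describe, rank or filter peaks within a list. Of the genes for the sorting receptors, Pdgfra had 6 regions, of which 3, 2, 3 and 3 held a peak in the CPC lists and 3, 1, 2 and 2 in the EPC lists. Kdr, which encodes FLK1, had 7 regions, with peaks at 2 to 4 of them in the CPC lists and at 3 to 5 in the EPC lists, so both genes had open regions in both gates. A peak does not measure the receptor on the cell, and the RNA-seq samples were not analysed here.

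Regions were given the names of all protein-coding genes that they touched in the RefSeq table (GRCm38.p6), or, where they touched none, of the closest one up to 50 kb away. The table gives gene bounds only, so exons, introns and UTRs were not used here, and an assignment says where a region lies, not which gene it acts on. A gene is said to have a region when the region was given its name in this way. Few CPC lost regions held a promoter. Of the 1173 on chromosomes with starts in the RefSeq promoter table, 54 held the start of a protein-coding gene (4.6%, 95% exact binomial interval 3.48 to 5.96%). The share was 20.1% over all ATAC regions. It was about as low at regions lost by the same rule in EPC (4.99%). At regions gained in CPC, with both induced and neither uninduced peak, it was 5.27%. The 250 bases before 3 of the starts in CPC lost regions are printed. They are those of the protein-coding genes highest in lower CPC score among the lost regions that hold a start. Ctla2a encodes an inhibitor of cysteine proteases, Cachd1 a membrane protein related to calcium channel subunits, and Vegfd a growth factor for lymphatic and blood vessels. Capitals mark the SOX core ACAAT and the GATA motif AGATAA, read on both strands (ATTGT and TTATCT in reverse), and each sequence runs 5′ to 3′ on the strand of its gene (RefSeq, GRCm38.p6).
Ctla2a: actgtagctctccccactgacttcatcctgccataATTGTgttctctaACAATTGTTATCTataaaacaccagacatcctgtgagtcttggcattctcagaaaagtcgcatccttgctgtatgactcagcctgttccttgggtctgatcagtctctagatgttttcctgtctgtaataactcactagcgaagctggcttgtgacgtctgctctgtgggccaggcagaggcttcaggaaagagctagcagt
Cachd1: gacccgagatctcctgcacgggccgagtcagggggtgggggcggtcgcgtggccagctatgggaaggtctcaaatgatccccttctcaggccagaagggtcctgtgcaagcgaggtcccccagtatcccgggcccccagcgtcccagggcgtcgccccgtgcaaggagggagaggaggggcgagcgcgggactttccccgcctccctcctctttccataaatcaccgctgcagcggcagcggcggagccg
Vegfd: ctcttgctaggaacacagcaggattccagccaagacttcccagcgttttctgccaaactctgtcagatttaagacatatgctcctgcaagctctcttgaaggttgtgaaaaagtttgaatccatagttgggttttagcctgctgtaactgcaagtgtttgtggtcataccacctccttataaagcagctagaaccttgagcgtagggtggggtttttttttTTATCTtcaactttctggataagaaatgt
The Ctla2a stretch precedes its start at position 60936625 of the minus strand and lies in the lost region chr13:60936056-60937319. In the 300 bases around that start the SOX core occurred 3 times and the GATA motif 1 time, all of them close together, and 2 of the SOX cores overlap each other. A second Ctla2a start in the same region, at 60936566, had neither motif in its window. The Cachd1 stretch (plus strand, start at 100776679, region chr4:100776031-100777946) held neither motif and its window had 25 CG pairs. The Vegfd stretch (plus strand, start at 164373522, region chrX:164372920-164373634, also overlapping Pir) held 1 GATA motif, and its window had 2 CG pairs.

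Motifs were counted in the 59 promoter windows that lay wholly inside a lost region (54 genes) and in all 21006 protein-coding promoters, each from 250 bases before to 50 after the start. ACAAT or its reverse was present in 12 of 59 (20.3%, 11 to 32.8%) against 27.3% of all promoters. The longer form AACAATG was present in 3 of 59 (5.08%, 1.06 to 14.1%) against 3.13%, and AGATAA in 3 of 59 (5.08%) against 9.6%. The E-box CANNTG was the one motif whose interval lay above the value of all promoters, at 83.1% (71 to 91.6%) against 69%. It is singled out from all the motifs counted here. Some of the 59 windows overlap, such as those of the Ctla2a starts, so the windows are not independent as the interval takes them to be. CCGGAAG, the core bound by ETS factors, was in 8.47% against 11.7%, GGAATG, the core bound by TEAD factors, in 13.6% against 13.5%, and the TATA box TATAAA in 11.9% against 12.5%. AGGTGTGA, bound by T-box factors, was in 0 of 59 (upper limit 6.06%) against 1.16%. ACAAT is part of AACAATG, so these matches overlap. Median GC content was 58.3% in these windows and 56.7% in all, with 16 and 13 CG pairs. A match is a string of letters, not a bound site.

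Most of the lost regions were weakly called before induction. In uninduced CPC library 1 their scores ran from 50 to 584 with a median of 82.7 (quartiles 63.8 and 121), against a median of 153 over all its peaks. In library 2 they ran from 50 to 384 with a median of 68.9 (quartiles 57.8 and 88.4), against 126. Scores under 100 were held by 63.1% and 82.8% of the lost regions in the 2 libraries, and by 34.9% and 40.5% of all peaks. The lower of the 2 scores, the value by which regions are ranked below, was under 60 in 498 regions, under 100 in 1062, and 200 or more in 10. Peaks at the lost regions were also narrower, with median widths of 796 and 659 bp against 952 and 851 bp.

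The share of regions lost fell with each step in score. Among regions with both uninduced CPC peaks, 24.3% of those whose lower score was 50 to 60 were lost (498 of 2049). The share was 17.4% at 60 to 70, 12.8% at 70 to 80 and 7.32% at 80 to 100. Of 2338 regions at 300 to 500, 1 was lost, and of 2633 at 500 or more none was, which allows a share of up to 0.14%. Thus a region near the threshold was lost in about 1 of 4 cases, and the strongest regions nearly never were. The rule itself favours weak regions, since a score near 50 needs only a small drop to miss the threshold, and the part of library depth in the losses was not tested.

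**Figure D1:**
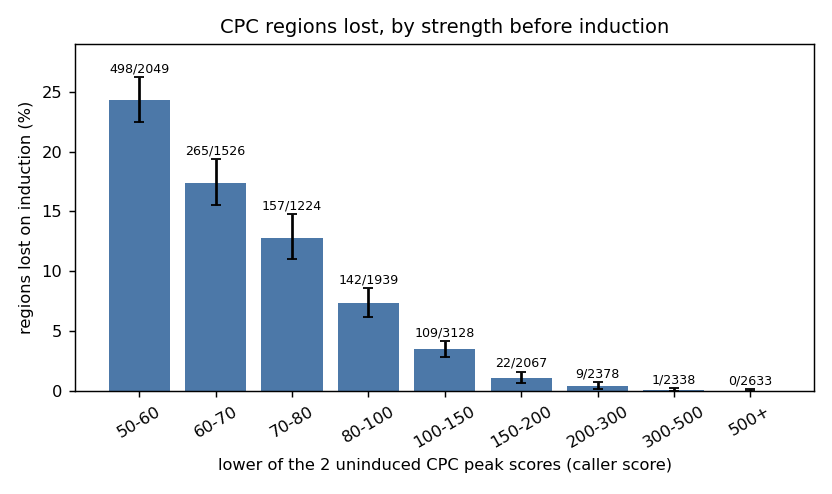
Share of regions lost in CPC (percent, y axis) by the lower of the 2 uninduced CPC peak scores (caller score, x axis), with exact binomial 95% intervals and the number lost over the number of regions in each band. The share falls from 24.3% in the lowest band to 0 of 2633 in the highest.

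At the edge of the rule, 3 members with the lowest scores were a region near Creb3l2 (53.6 and 50.0 in libraries 1 and 2), a region in Itgav (57.0 and 50.0) and a region in Nos1ap (50.0 and 55.3). Itgav encodes the αv integrin chain, Creb3l2 a transcription factor of the endoplasmic reticulum stress family. Just outside were a region in Vangl2, a planar cell polarity gene (75.1 and 64.2, and 50.0 in induced library 1), and a region in Rbms3, an RNA-binding protein gene (317.5 and 102.4, and 50.0 in induced library 1). The last, with no gene within 50 kb, scored 121.2 and 104.2 and had a peak at 50.0 in induced library 2. Another 1724 regions had both uninduced peaks and a peak in 1 induced list. Of the lost regions, 41 (3.41%) had an induced CPC peak within 500 bp and 82 (6.82%) within 1 kb, shares that were not measured at other regions.

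The highest lower score near a gene was in Septin11, which encodes a filament-forming septin of the cytoskeleton. Its region chr5:93143341-93144330 lies inside the gene and scored 571.6 and 253.5 in uninduced CPC libraries 1 and 2, with no peak in either induced CPC list or in any EPC list. Nme9, of the nucleoside diphosphate kinase family, had 381.0 and 226.5 (chr9:99476759-99478333). Neither region had a peak in any of the 4 EPC lists. Actg2, the γ-actin of smooth muscle, scored 418.6 and 183.1 (chr6:83522865-83524139), and Medag, a gene of adipocyte formation, 466.4 and 201.3, again with no EPC peak. Sh3pxd2a, a scaffold of podosomes, scored 347.2 and 182.4 and had a single EPC peak of 83.7 in uninduced library 2. Corin, the protease that activates the heart hormone ANP, lay 16.4 kb from a region of 180.2 and 274.9 with no EPC peak.

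Of the 25 leading regions near genes, 17 had no EPC peak, 5 had 1 peak in an uninduced EPC list only, and 1 each had 2 (in Fer), 3 (in Ppfibp2) and 4 (near Susd4). The Susd4 region, 11.6 kb from a gene for a complement regulator, scored 242.2 and 192.1 in CPC and 69.8 and 138.9 in uninduced and 59.2 and 66.2 in induced EPC. In Ppfibp2, which encodes a liprin, CPC scores were 211.6 and 226.3, uninduced EPC scores 313.6 and 109.0, and the only induced EPC peak scored 50.4. Others of the 25 lay in Skp2 (a subunit of a ubiquitin ligase of the cell cycle), Rsf1 (chromatin remodelling) and Elf5 (an ETS factor of trophoblast and mammary epithelium). Ltbp2 (a matrix protein of the LTBP family), Hdac4 (a histone deacetylase that represses MEF2 factors), Mthfd1l (mitochondrial folate metabolism) and Fer (a tyrosine kinase) also held one. The lower scores in these genes, Skp2 to Fer, were 147.2 (Hdac4) to 162.8 (Skp2). The highest lower score of all was far from genes, at chr8:103408793-103409877, 623 kb from the nearest protein-coding gene, with 583.9 and 383.5 and no EPC peak. Also with no EPC peak, chr14:107977802-107978576 had 226.0 and 363.8 and lay 931 kb from a gene.

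**Figure D2:**
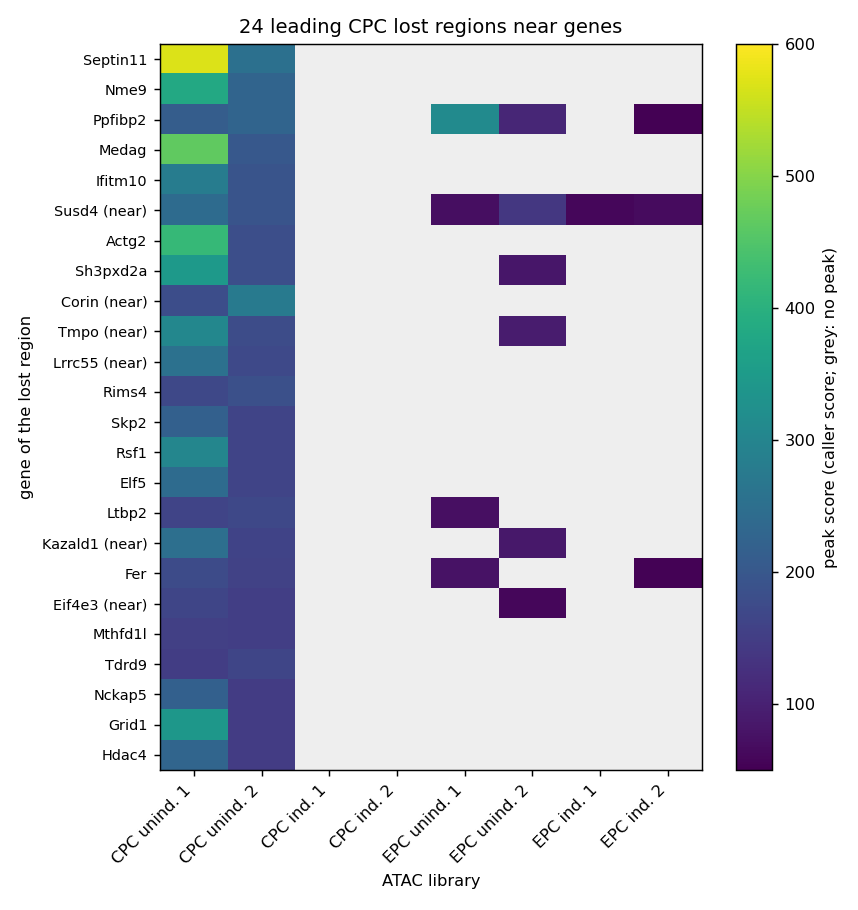
Peak scores (colour) of 24 of the 25 CPC lost regions near genes with the highest lower score, in each of the 8 ATAC libraries (x axis), with each region named by its gene (y axis) and grey where a list holds no peak. The induced CPC columns are empty by the rule, and 16 of the 24 regions are also empty in all 4 EPC columns, Septin11 and Actg2 among them.

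The lost regions were mostly without a peak in EPC. In uninduced EPC libraries 1 and 2, 314 (26.1%) and 252 (20.9%) of the 1203 regions held a peak, and in induced libraries 1 and 2 it was 207 (17.2%) and 246 (20.4%). Both induced shares lay below both uninduced ones, although the gap between uninduced library 2 and induced library 2 was only 0.499 points. The mean was 23.5% ± 3.64 (SD, n = 2) without and 18.8% ± 2.29 (SD, n = 2) with doxycycline, a difference of -4.7 percentage points with a two-sided exact permutation p of 0.333, which is the smallest that 2 against 2 libraries can give. When 1 library was left out, the difference ran from -7.27 (without uninduced EPC library 2) to -1.5 points (without induced CPC library 1). It was -2.73, -1.53 and -2.8 points without uninduced CPC library 1, uninduced CPC library 2 and induced CPC library 2. Without uninduced or induced EPC library 1 it was -2.12 and -3.08 points. Leaving out any 1 CPC library made the uninduced and induced EPC shares overlap (exact permutation p of 0.667 or more). They also overlapped with scores of 100 or more in every list (-6.11 points, exact permutation p = 0.667).

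Over the other sets of regions as a whole, the mean EPC difference had the opposite sign. At regions with 1 induced CPC peak the libraries interleaved, with 52.4% and 40.8% in uninduced and 45.2% and 51.1% in induced EPC. The induced EPC lists were also longer, with 28915 and 30732 peaks against 27934 and 23694. Over all ATAC regions, a pool that includes regions found only in EPC, the share with a peak was 48.8% ± 6.14 (SD, n = 2) in uninduced and 56.7% ± 2.7 (SD, n = 2) in induced EPC, a difference of 7.86 points (exact permutation p = 0.333). At the 1724 regions with 1 induced CPC peak it was 46.6% and 48.1% (1.54 points, exact permutation p = 1, n = 2 each), and at the 16355 regions with a peak in all 4 CPC lists 86.7% and 89.7% (3 points, exact permutation p = 0.333, n = 2 each). The share at lost regions was also divided by the share at all other ATAC regions of the same list. This ratio was 0.485 and 0.465 in uninduced and 0.309 and 0.344 in induced EPC. The groups did not overlap, with means of 0.475 ± 0.0142 and 0.326 ± 0.0244 (SD, n = 2 each, exact permutation p = 0.333, the smallest possible). The divisor, 53.8% and 45.1% in uninduced and 55.7% and 59.5% in induced EPC, counts regions that are in the pool only through an EPC peak. Part of the gap in the ratio therefore comes from the divisor, and the ratio is not a correction for list length alone.

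**Figure D3:**
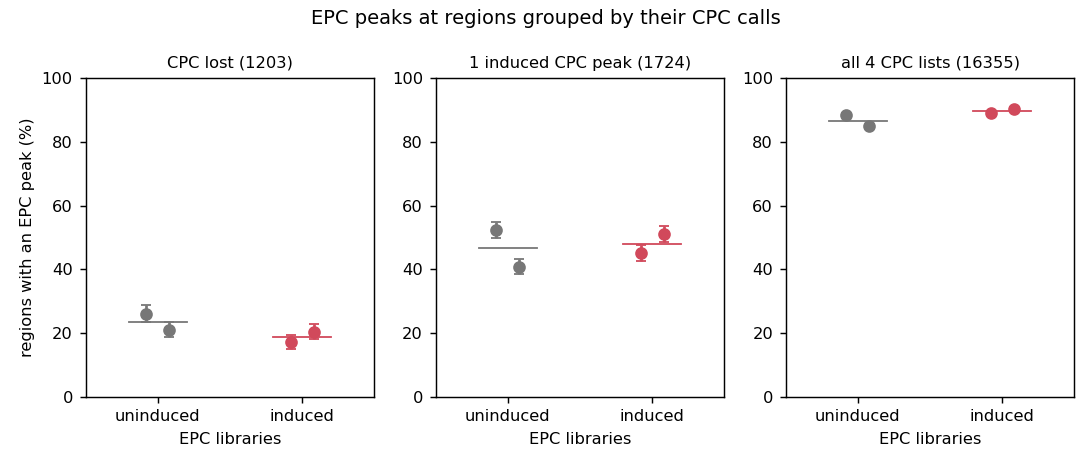
Share of regions with an EPC peak (percent, y axis) in each uninduced (grey) and induced (red) EPC library (x axis) for regions lost in CPC, regions with 1 induced CPC peak and regions with all 4 CPC peaks. Error bars are exact binomial 95% intervals and horizontal lines are means of 2 libraries, which at lost regions are 23.5% and 18.8%.

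The EPC shares of lost regions were also low within bands of score. Among regions whose lower uninduced CPC score was 50 to 60, 24.1% of the 498 lost ones had a peak in the average uninduced EPC list and 20.7% in the average induced one (-3.41 points). In the same band the 550 regions with 1 induced CPC peak had 44.3% and 48% (3.73 points), and the 1001 with both had 64.9% and 74.9% (9.99 points). At 80 to 100 the lost regions had 23.6% and 16.2% (-7.39 points), those with 1 induced CPC peak 48.9% and 49.5%, and those with all 4 CPC peaks 77.5% and 83.3%. At 100 to 200 the values were 21% and 13% (-8.02 points) for 131 lost regions, 47.6% and 44.1% (-3.48 points) for those with 1 induced peak, and 85.7% and 88.1% for those with both. Regions lost in CPC thus had the lowest mean EPC share of the 3 sets and a negative mean difference in each of these 3 bands. The set with 1 induced peak lay between. At 50 to 60 the libraries of lost regions interleaved, with 27.1% and 21.1% in uninduced and 18.3% and 23.1% in induced EPC. They also interleaved over 50 to 100, which holds 1062 of the lost regions (26.8% and 21.1% against 18% and 21.4%). They did not at 80 to 100 (26.1% and 21.1% against 14.8% and 17.6%) or at 100 to 200 (21.4% and 20.6% against 12.2% and 13.7%).

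By pattern, 756 of the lost regions (62.8%, 60 to 65.6%) had no peak in any EPC list, against 22.1% of all ATAC regions and 11.4% of the regions of like score (50 to 100) with all 4 CPC peaks. All 4 EPC lists held a peak at 94 (7.81%) against 33.7% of all regions. Peaks in uninduced EPC lists only were found at 141 lost regions (11.7%, against 10.6% of all) and in induced lists only at 60 (4.99%, against 19%). In all ATAC regions the second kind was the more frequent, and among lost regions the first. The pool of all ATAC regions includes regions called in EPC lists alone, whereas lost regions all entered through CPC peaks.

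**Figure D4:**
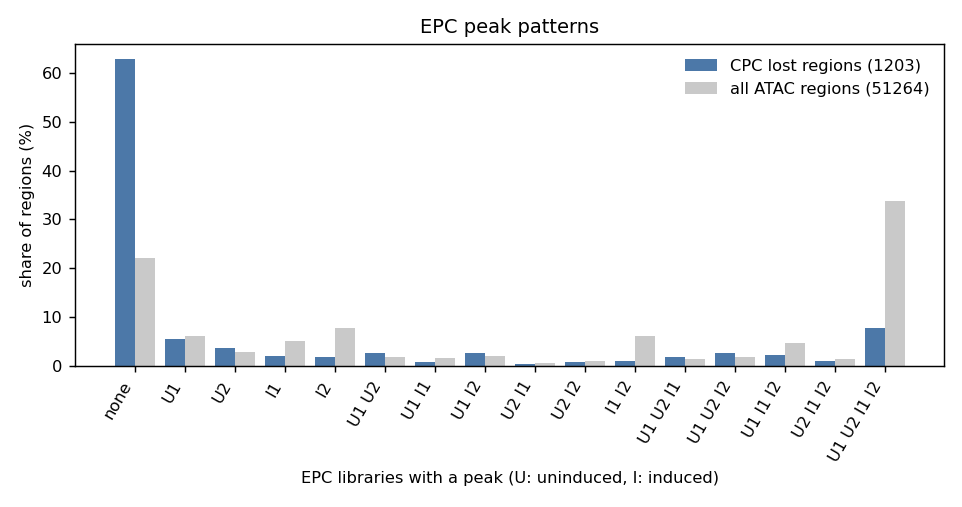
Share of regions (percent, y axis) with each combination of EPC libraries holding a peak (x axis, U for uninduced and I for induced libraries), for the 1203 CPC lost regions (blue) and all 51264 ATAC regions (grey). No EPC peak is the commonest pattern of lost regions (62.8%), and all 4 the commonest of all regions (33.7%).

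A peak in both uninduced and neither induced EPC list marks a region lost in EPC too, which was so for 31 of the 1203 (2.58%, 1.76 to 3.64%) and for 1.82% of all ATAC regions. Over all regions with both uninduced EPC peaks, 4.71% were lost in EPC. Of the 179 CPC lost regions with both uninduced EPC peaks, 17.3% (12.1 to 23.7%) were lost in EPC, against 4.6% of the other 19654 regions with both. Within bands of the lower uninduced EPC score, the shares were 27.5% against 21.6% at 50 to 60, 24.5% against 12.3% at 60 to 80 and 20.8% against 6.39% at 80 to 100. At 100 to 200 it was 2 of 40 (5%) against 1.33%, and at 200 or more 0 of 22 against 0.0347%. The intervals of lost and other regions overlapped at 50 to 60 (14.6 to 43.9% and 19.7 to 23.5%), at 80 to 100 (7.13 to 42.2% and 5.29 to 7.64%), at 100 to 200 (0.611 to 16.9% and 1.03 to 1.7%) and at 200 or more. At 60 to 80 they lay side by side without overlap (13.8 to 38.3% and 11 to 13.6%). With 1 EPC library left out, so that 3 lists had to meet the rule, the share of the 1203 also lost in EPC was 6.23% and 8.06% without uninduced library 1 or 2 and 4.32% and 5.32% without induced library 1 or 2.

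Named by their lower CPC score, the regions lost in both gates were led by Bmf, a BH3-only protein gene of apoptosis (146.8 and 137.3 in uninduced CPC, 101.8 and 77.8 in uninduced EPC, chr2:118528990-118529991). Astn1, a neuronal adhesion gene, had 120.8 and 112.8 in CPC and 64.7 and 67.3 in EPC. Sema6d, a membrane semaphorin with a role in heart development, lay 18.1 kb from a region with 107.6 and 139.7 in CPC and 56.6 and 94.3 in EPC, and Cdh3, P-cadherin, lay 2.51 kb from one with 113.3 and 107.4 in CPC and 54.7 and 82.1 in EPC. Dmd, which encodes dystrophin, had 121.8 and 94.5 in CPC and 67.6 and 86.8 in EPC. Col18a1, whose product is the precursor of endostatin, had 121.2 and 84.6 in CPC and 158.9 and 51.5 in EPC. Of the EPC scores given for these 6 regions, all but 158.9 at Col18a1 were 101.8 or lower.

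The opposite pattern, a region lost in CPC and gained in EPC, was rare. It was found at 13 regions (1.08%, 0.577 to 1.84%), against 6.12% of all ATAC regions. Over all regions with no uninduced EPC peak, 14.9% were gained in EPC. Of the 816 lost regions with no uninduced EPC peak, 1.59% (0.851 to 2.71%) were gained in EPC, against 15.5% of the other 20221 regions without one. Those other regions include ones called in induced EPC lists alone, which entered the pool only through those peaks. Part of the gap, also of that between 1.08% and 6.12%, thus follows from how the pool was made, and its size was not measured. The strongest was in Vangl1, a planar cell polarity gene, with 194.1 and 133.9 in uninduced CPC, none in induced CPC, none in uninduced EPC, and 152.0 and 121.2 in induced EPC (chr3:102167447-102168578). Zbtb20, a transcriptional repressor, followed with 127.9 and 83.0 in CPC and 52.7 and 55.3 in induced EPC. Dnmt3b, a de novo DNA methyltransferase of early embryonic cells, had 82.2 and 71.8 in CPC and 61.0 and 87.6 in induced EPC. Plau, the urokinase gene used in cell migration, had 126.8 and 59.0 in CPC and 64.8 and 117.5 in induced EPC, and Ebf1, a B cell and stromal transcription factor, lay 6.42 kb from one with 75.8 and 55.5 in CPC and 60.5 and 91.4 in induced EPC. At these 13 regions the peak calls of the gates changed in opposite directions, and the difference itself was not tested at single regions. Some of the calls had low scores, such as 52.7 and 55.3 in induced EPC at Zbtb20. Others were higher, such as 152.0 and 121.2 in induced EPC at Vangl1. Whether the chromatin itself changed in opposite directions was not tested, since calls give presence or absence of a peak only.

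A few regions lost in CPC had high scores in every EPC list. The one with the highest lowest EPC score, chr6:133386756-133388055, is 91 kb from the nearest protein-coding gene and scored only 75.4 and 50.7 in uninduced CPC, but 1902 and 1172 in uninduced and 1240 and 1356 in induced EPC. Ctla2a, whose promoter is printed above, scored 115.0 and 120.7 in uninduced CPC, 1556 and 763.9 in uninduced EPC and 442.1 and 365.1 in induced EPC. Sgcd, which encodes a sarcoglycan of the muscle membrane, had 72.4 and 53.8 in CPC, 802.1 and 371.9 in uninduced EPC and 492.6 and 387.5 in induced EPC. Noxa1, an activator of NADPH oxidase, lay 15.3 kb from a region with 105.3 and 100.8 in CPC and EPC scores of 361.2 to 1041. Sgk1, a kinase induced by serum and steroids, had 129.3 and 54.1 in CPC and 179.9 to 298.5 in EPC. At these regions EPC was called open in both conditions, and the CPC calls were weak before induction.

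Gene starts were more frequent among lost regions with EPC peaks, as they were among other regions. A protein-coding start was held by 17% of the 94 lost regions with all 4 EPC peaks, by 8.9% of those with 1 to 3 and by 1.08% of those with none. At the other ATAC regions the same shares were 47.6%, 7.93% and 3.03%, and at regions with all 4 CPC peaks and a lower score under 100 they were 40.8%, 19.2% and 2.73%. Cachd1, whose promoter is also printed above, had 100.1 and 91.0 in uninduced CPC and a peak in every EPC list (138.8 and 210.0 uninduced, 360.3 and 187.8 induced). The Vegfd region had 143.9 and 88.6 in CPC and EPC peaks in uninduced library 1 (92.2) and induced library 2 (103.1). The start of Hacd3, a dehydratase of fatty acid elongation, had 82.0 and 100.0 in CPC, with EPC peaks in the same 2 libraries (101.0 and 84.9). The starts in Hapln3, a link protein of the hyaluronan matrix (109.3 and 78.5), and Zmynd8, a reader of histone marks (164.4 and 77.7), had no EPC peak. One region in Tmcc3 (chr10:94585653-94586518; 112.0 and 89.1 in CPC, 77.7 in uninduced EPC library 1) held the hairpin of Mir7211, whose mature form is shown with its seed, bases 2 to 8, in capitals.
mmu-miR-7211-5p: uCUUUCCCucugccacuccacc

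Relative to genes, most of the lost regions were distal. Within 1 kb of a gene boundary lay 120 (9.98%, 8.34 to 11.8%), against 26.7% of all ATAC regions, 20.9% of those with 1 induced CPC peak and 55% of those with all 4 CPC peaks. Inside a gene body lay 589 (49%, 46.1 to 51.8%), against 59.7%, and 283 (23.5%, 21.2 to 26%) had no protein-coding gene within 50 kb, against 16%. The share within 1 kb was 15.6% of the 597 regions lost when every list was limited to scores of 100 or more, and 15.2% without induced CPC library 2. The median distance to a gene boundary was 25.4 kb for lost regions and 10.8 kb for all. In the score band of 50 to 60, 11.8% of the lost regions lay within 1 kb of a boundary, against 22.5% of those with 1 induced CPC peak and 33.6% of those with all 4, so the difference in position was also present among weak peaks. Other regions that changed lay about as far out, with 10.8% of the 935 regions lost in EPC within 1 kb of a boundary, and 9.4% of the 2946 gained in CPC, which were 5.75% of all ATAC regions.

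**Figure D5:**
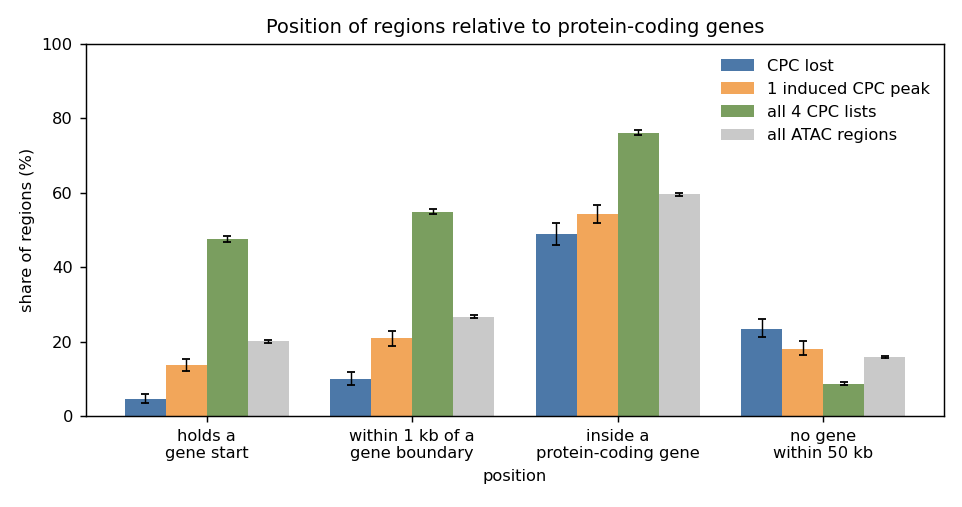
Share of regions (percent, y axis) that hold a protein-coding start, lie within 1 kb of a gene boundary, lie inside a protein-coding gene or have none within 50 kb (x axis), for CPC lost regions, regions with 1 induced CPC peak, regions with all 4 CPC peaks and all ATAC regions, with exact binomial 95% intervals. Lost regions have the lowest share within 1 kb of a boundary (9.98%) and the highest with no gene within 50 kb (23.5%).

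Losses were spread over the genome and over genes. They made up 1.5% (chromosome 8) to 3.13% (chromosome 10) of the ATAC regions of a chromosome, with 0 of 46 on Y. Another lost region lay within 50 kb of 101 lost regions (8.4%), a share that was not measured for other regions. In all, 872 of the 16804 protein-coding genes with any ATAC region had a lost one (5.19%), 812 of them just 1. Kalrn, a guanine nucleotide exchange factor of neurons, had the most, with 5 of its 18 regions over 604 kb of chromosome 16. Their scores in uninduced CPC libraries 1 and 2 were 77.3 and 86.4, 109.8 and 104.4, 271.4 and 111.4, 112.8 and 91.7, and 131.0 and 120.7. The first of these had peaks in all 4 EPC lists (353.5 to 633.1), 2 had none, and 2 had EPC peaks of at most 66.7. Edil3, a matrix protein bound by integrins, lost 3 of 7 regions, Fhad1 3 of 14, Negr1, an adhesion gene of neurons, 3 of 16, Septin9, another septin, 3 of 16, and Trabd2b, an inhibitor of Wnt ligands, 3 of 29. The 15 lost regions of these 5 genes had no EPC peak.

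Gene lists were set beside that 5.19%. Of the 366 listed genes 347 had an ATAC region and 25 a lost one (7.2%), a number that was 2 when uninduced peaks had to score 100 or more and 63, 102, 53 and 42 without uninduced CPC library 1 or 2 or induced CPC library 1 or 2. In the list for smooth muscle and actin 4 of 23 genes had one (17.4%), Actg2, Septin11, Synpo2 (an actin-bundling protein, 78.2 and 99.9, no EPC peak) and Cnn1 (calponin of smooth muscle, 2.58 kb away, 70.4 and 60.7, with EPC peaks of 134.7 and 50.8 uninduced and 63.2 in induced library 2). Actg2 and Septin11 had been put on that list with their loss known, so its count is not independent. Of 24 cardiac genes 3 had a lost region. Smarcd3, the cardiac BAF subunit, had 2, one with 99.7 and 64.1 and no EPC peak and one with 173.5 and 70.5 and all 4 EPC peaks. Gata4, a cardiac and endodermal zinc finger factor, lay 11.8 kb from a region with 59.8 and 53.5, and Tbx2, a repressor of the chamber program, 6.87 kb from one with 52.9 and 54.2, both with an EPC peak in induced library 1 only (60.2 and 66.8). All 4 of these CPC scores at Gata4 and Tbx2 were within 10 of 50, the lowest score in these lists.

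Among early mesoderm genes 2 of 24 had lost regions. Eomes, a T-box factor that specifies cardiac mesoderm, lay 32.9 kb from one with 51.4 and 60.4 in CPC and EPC peaks of 83.5 and 53.0 in the uninduced and 81.2 in induced library 2. Meis1, a homeobox cofactor, had 2 (144.9 and 56.3, and 170.1 and 58.0) with no EPC peak. The endothelial list had 1 of 31, S1pr1, a sphingosine phosphate receptor of vessels, 48.1 kb from a region of 68.1 and 50.9 with no EPC peak. Gfi1b, a repressor in red cell and megakaryocyte development, was the only 1 of 20 blood genes, 5.92 kb from a region with 84.5 and 90.7 in CPC and 63.3 in induced EPC library 2. Counts of 1 gene in lists of this size are close to what 5.19% of all genes comes to. Pluripotency had 2 of 21, Dnmt3b (above) and Tcf7l1, a Wnt effector that represses pluripotency genes, with 2 regions. One had 107.6 and 73.8 in CPC and EPC peaks of 67.8 in uninduced library 1 and 99.7 and 57.9 in the induced libraries, and the other had 60.8 and 64.1 and no EPC peak. Gata4 was the 1 of 20 endoderm genes, and no gene was counted in the SOX family (0 of 19) or among housekeeping genes (0 of 17). Sox7 itself had 3 regions, none of them lost in CPC, with peaks at 0 and 1 of them in the uninduced and at 2 each in the induced CPC lists.

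In the signalling lists, ligands, receptors and intracellular members each appeared. Of 28 Wnt genes, 2 had lost regions, the ligand Wnt11, which acts in heart formation (59.5 and 61.9, and 72.0 and 53.4), and Axin2, an inhibitor that the pathway itself induces (87.8 and 52.4), none with an EPC peak. For BMP and TGF-β it was 3 of 33. The receptor Acvr1 had 61.2 and 94.4 in CPC and EPC peaks in both uninduced libraries and induced library 1 (54.0 to 78.5), the signal transducer Smad3 had 2 regions (57.5 and 70.4, and 74.8 and 54.2) with no EPC peak, and the target Id2 had 77.8 and 54.9 and an EPC peak of 52.5 in uninduced library 2. For FGF and PDGF it was 3 of 27, the ligand Fgf1 (144.9 and 51.1) and the feedback inhibitors Spry4 (78.1 and 60.2) and Spred2 (90.0 and 57.1). The Fgf1 region had EPC peaks of 60.7 and 71.5 in the uninduced and 83.8 in induced library 2, and the Spry4 and Spred2 regions had none. Notch1, a receptor of arterial and endocardial development, lay 21.7 kb from a region of 58.4 and 84.0 with no EPC peak and was 1 of 21 Notch genes. The matrix list had 2 of 32, Col5a1, a fibrillar collagen (115.0 and 84.5), and Itgav (above), both with no EPC peak. In each of these lists the lower score was under 100 at every lost region.

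Sox7 binding was seldom called at the lost regions. Each uninduced anti-Myc ChIP list held a peak at 9 to 11 of the 1203 (0.748 to 0.914%), against 1.12 to 1.33% of all ATAC regions. Each induced list held one at 9 to 10 (0.748 to 0.831%), against 1.6 to 3.98%. For the input list it was 6 (0.499%), against 1.06%. The uninduced and input lists thus also had lower shares at lost regions than at all regions. Of 772 peaks in uninduced ChIP list 4, 585 (75.8%) began at the same base as a peak of uninduced list 2, where no other pair among these 9 lists exceeded 1.04%, so the counts of both are not independent. Any induced ChIP peak was found at 16 (1.33%, 0.762 to 2.15%), against 4.75% of all ATAC regions. Of these 16, 11 also had a peak in an uninduced ChIP or input list. Over all ATAC regions, 2434 had an induced ChIP peak, and 1660 of them had none in an uninduced ChIP or input list. The share of lost regions with an induced ChIP peak was 2.51% when every ATAC list was limited to scores of 100 or more. It was 0.709% (1 of 141) when uninduced peaks had to reach 100. The other 5 of the 16 (0.416%, against 3.24%) lay in Col18a1 (chr10:77134267-77135271), near Epha1, Gm10340 and Gm42346, and at chr2:30540889-30541666. A peak in at least 3 induced and no uninduced ChIP list was found at 0 (upper limit 0.306%), against 0.412% of all regions. In the authors' deposited table of 666 final Sox7 peaks, none overlapped a lost region (upper limit 0.306%), against 0.942% of all ATAC regions. Lost regions were mostly weakly called and distal, and their ChIP overlap was not compared with that of regions of like score or position. ChIP was done on unsorted EBs, so a site bound in the CPC gate alone may fall under the threshold of these lists, and weak binding and binding in few cells cannot be told apart. Of the authors' deposited tables of induced-only ATAC peaks, that for CPC overlapped 0 lost regions, as its definition implies. That for EPC overlapped 14 (1.16%), against 6.34% of all ATAC regions, a pool that includes regions found only in EPC.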

How the data were processed

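The deposited files are peak lists, 1 per library, with coordinates and a score per peak that the authors' caller wrote; per the submitters' processing notes the build is GRCm38 (mm10), and the tools named, with no role, include Trimmomatic, Bowtie2, SAMtools, MACS 1.4 and bedtools. Filters before deposit are not given in the sources used here. With Python 3.11.15, pandas 2.3.3 and scipy 1.17.1, peaks were merged at an overlap of 1 bp, and presence was scored per list. Intervals of shares are exact binomial ones (Clopper-Pearson, 95%) and reflect counting alone, since regions are not replicates. Conditions were compared over libraries with two-sided exact permutation tests, whose smallest p for 2 against 2 is 0.333, so none can pass 0.05. The RefSeq gene table holds 21887 protein-coding genes with no strand. The promoter table holds starts of 17492 of them and none on chromosome 18, so distances to starts are not printed.

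Named regions were the 25 with the highest lower score near a gene, all on the gene lists, genes with 3 or more, the 10 strongest with all 4 EPC peaks, the 10 leading ones also lost and gained in EPC, the 10 leading ones with a start, and 3 on each side of the threshold; of these, examples are printed, and a few are not reported here. The regions far from genes, those with a ChIP peak and the one holding a hairpin were added after their values were seen. Members and lists were chosen with earlier results of these data known. The merging and calling were tested on simulated lists, where 200 of 200 planted regions among 5000 were recovered with 0 false calls. Alternatives were other score thresholds, list lengths, merging rules, gene distances and libraries left out.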

Additional observations from a re-analysis of the deposited data

How the results depend on the processing

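The number of regions lost in CPC depended on the calling threshold and on each library. It was 1203 as reported, 597 with peaks of 100 or more in every list, and 141 when the uninduced peaks alone had to reach 100, with 141 members called in each. With all lists reduced to the length of the shortest it was 1536, of which 863 were members (71.7%). It ran from 1895 (without induced CPC library 2) to 4535 (without uninduced CPC library 2) when 1 CPC library was left out, and 2633 without uninduced and 2235 without induced library 1, since fewer lists then have to meet the rule. The EPC difference was negative under every alternative run, from -7.8 to -1.5 points, with exact permutation p-values of 0.333 to 1. The replicate block gave -8.89 points within number 1 and -0.499 within number 2, mean -4.7, with a sign-flip p of 0.5, the smallest that 2 pairs allow. Only numbers in the titles pair the libraries, and replicate deviations of log scores correlated at 0.028 in CPC and 0.021 in EPC. The share also lost in EPC was 3.91% at equal length and 2.2 to 8.06% with 1 library left out. The share within 1 kb of a gene boundary was 15.6% with all peaks at 100 or more, 12.6% at equal length and 9.72 to 15.2% with 1 library left out, and that inside a gene 48.8 to 52%. Regions with an induced ChIP peak were 2.51% with all peaks at 100 or more and 0.709% with uninduced peaks at 100. They were 0.42% without regions on an input or uninduced ChIP peak, an alternative chosen after seeing the data, as were merging at 50% overlap and leaving out regions with an induced peak within 500 bp. Listed genes numbered 25 as reported, 2 with uninduced peaks at 100, 40 at equal length and 42 to 102 with 1 library left out. A planned 50% coverage rule changed nothing, because every peak lies within its merged region.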
